A study of Mus musculus with 14 samples.

Results

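The cytosolic ribosomal protein genes encode the proteins of the 2 ribosomal subunits that translate nuclear mRNA outside mitochondria. They were chosen by name, as the genes whose symbol is Rpl or Rps with a number, plus Rplp0, Rplp1, Rplp2, and Rpsa, without named pseudogenes, and with an FPKM of at least 10 in 3 or more mice. FPKM is the number of fragments scaled to the length of the transcript in kilobases and to the mapped fragments of the library. Of 21878 genes in the files, 84 had such a name and 80 passed the level, 48 of the large subunit and 32 of the small subunit. Kidney RNA had been sequenced from 14 male C57BL/6J mice. There were 4 mice in each diabetic group, Cfb-/- diabetic and WT diabetic, and 3 in each control group, Cfb-/- control and WT control. Diabetic mice had received a high-fat diet with 60% of calories from fat for 4 weeks and then STZ, a toxin for pancreatic beta cells, at 60 mg/kg on 5 days. Control mice of both genotypes received chow with 10% of calories from fat and citrate buffer. Cfb-/- mice lack complement factor B, a protease of the alternative complement pathway, in all cells rather than in kidney cells alone. A time of 34 weeks is on the labels, with no word on when it was counted from, and the deletion is called a knockdown there.

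A ribosome holds a single copy of most of these proteins, and cells make them in matched amounts together with ribosomal RNA. Many of their mRNAs begin with a C followed by a run of pyrimidines (C or T in the gene), the terminal oligopyrimidine (TOP) tract, which places their translation under control of the mTOR kinase. Free Rpl5 and Rpl11 bind Mdm2, which ties ribosome assembly to p53, and a few members have paralogs that can take their place.

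Cfb was listed at 1.13 to 2.22 FPKM in the 7 Cfb-/- mice and at 56.7 to 131 FPKM in the 7 WT mice. The markers of proximal tubule, the main cell type of kidney cortex, were found in all mice at a summed 927 to 2955 FPKM. All 14 mice had values of their own, and sequencing depth is unknown. The second WT control mouse stood apart. Its FPKM values summed to 488196, against 330246 to 427297 in the other 13 mice, and its median-ratio size factor was 0.784, against 0.889 to 1.17 in the others. A median-ratio size factor is the median over genes of a mouse's value divided by the gene's geometric mean, and dividing by it sets the middle gene of each mouse to the same level. Since the factors were 1.03 to 1.17 in diabetic mice and 0.784 to 0.958 in control mice, values are given both as deposited and after this scaling.

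All 80 members were at 10 FPKM or more in every mouse. Their means over 14 mice ran from 24.5 FPKM for Rpl21 to 1315 FPKM for Rpl41, a 53.7-fold range with a median of 269 FPKM. Rpl41, a very short peptide of the large subunit, led, followed by Rps29 at 1014 FPKM and Rplp1, an acidic protein of the P stalk that recruits elongation factors, at 820 FPKM. At the low end, Rps15a had a mean of 24.7 FPKM and Rpl7l1 of 25.7 FPKM. In all, 69 members had a mean of at least 100 FPKM, and 69 were among the 500 genes of highest mean. The order of levels was nearly the same in every group, with a Spearman's rho of 0.993 to 0.998 across the 80 genes between neighbouring groups. These correlations are across genes that share libraries and lengths, and genes are not independent replicates.

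**Figure D1:**
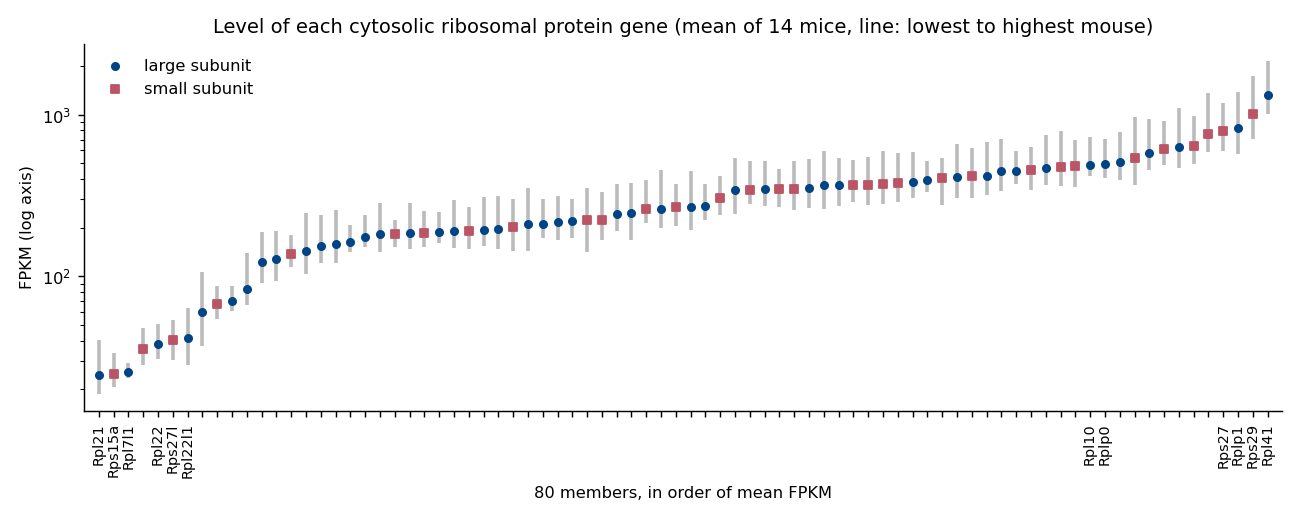
Mean FPKM of each of the 80 members over 14 mice on a log axis, in order of level, with a line from the lowest to the highest mouse. Circles are large subunit and squares small subunit genes, and members at the ends and those with paralogs are among the labelled ones. Rpl21, Rps15a, and Rpl7l1 are lowest, between 24.5 and 25.7 FPKM, and Rpl41 is highest at 1315 FPKM.

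Of these members, 63 have 1 or more pseudogenes named after them in the annotation, 319 in all and up to 24 for a single gene. Reads from such near-identical copies can be split or lost in counting, so levels compared between members are uncertain. Rpl21 has 15 and Rpl41 has none. Across members, Spearman's rho of the number of named pseudogenes with the mean FPKM was -0.14, and that of transcript length with the mean FPKM was -0.21. The 80 genes lie on 19 chromosomes, and 4 of them are X-linked, including Rpl10, Rpl39, and Rps4x. A GO term for a cytosolic ribosomal subunit is given to 79 members, and the exception is Rpl41.

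The paralogs Rpl10l, Rpl39l, and Rpl3l matched the naming rule and fell below the level. Rpl10l, a testis paralog of Rpl10, was listed at 0 in all mice. Rpl39l was listed at 0 in 13 mice and at 0.0801 FPKM in the third WT diabetic mouse. Rpl3l, a paralog of Rpl3 known from striated muscle, was at 0.771 to 1.08 FPKM in the 6 control mice and at 0.219 to 0.458 FPKM in the 8 diabetic mice. The control and diabetic mice did not overlap, at levels far below those of Rpl3, which was at 152 to 239 FPKM. Expressed paralogs were Rpl22l1 at 28.4 to 64.1 FPKM beside Rpl22 at 30.9 to 50.5 FPKM, Rps27l at 30.5 to 53.7 FPKM beside Rps27 at 598 to 1172 FPKM, and Rpl7l1 at 23.5 to 29.1 FPKM beside Rpl7 at 370 to 596 FPKM.

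RefSeq windows of 300 bases around annotated starts on GRCm38.p6 were found for 60 of the 80 members, in 71 windows. The 30 bases from 10 before the start are shown for members whose values are described later, with a pyrimidine tract that begins with C within 3 bases of the start in capitals. Rps6, the small subunit protein phosphorylated by S6 kinase, at chr4:86857348-86857377 on the minus strand, and Rpl28, at chr7:4792955-4792984 on the plus strand, have such tracts. Rpl15, at chr14:18270967-18270996 on the minus strand, has a tract of 16 bases. The paralog Rpl22l1, at chr3:28805498-28805527 on the plus strand, also has one, and Rpl7l1, at chr17:46782637-46782666 on the minus strand, has none.
Rps6: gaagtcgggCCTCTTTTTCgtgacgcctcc
Rpl28: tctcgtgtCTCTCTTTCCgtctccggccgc
Rpl15: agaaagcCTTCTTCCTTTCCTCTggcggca
Rpl22l1: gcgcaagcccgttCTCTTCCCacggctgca
Rpl7l1: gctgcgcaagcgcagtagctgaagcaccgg

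A C followed by 4 or more C or T, beginning within 3 bases of the start on the coding strand, was found in 26 of 71 member windows (36.6%) and in 11.5% of 32851 windows of all genes. On either strand of the 300 bases, CCGGAAG, the motif of ETS factors such as GABP, was in 36.6% of member windows and 8.86% of all windows, and GCCATNTT, the motif of YY1, was in 23.9% and 6.05%. GGGCGG, bound by Sp1, was in 62.0% and 35.7%, whereas TATAAA was in 9.86% and 13.6%. The tract overlapped CCGGAAG or its complement in 1 member window. These matches are descriptions of annotated starts, which can differ from the starts used in kidney. The 25 members with a tract and the 35 with a window but none had like median log2 differences in WT mice with diabetes, -0.18 and -0.19, and in Cfb-/- control against WT control mice, -0.43 and -0.43.

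The members rose and fell together from mouse to mouse. Within groups, the deviation of a member from its group means had a median Pearson's r of 0.967 with the median of the other members over the 14 mice, and the lowest was 0.490 for Rpl7l1. Rpl15 followed at 0.586, whereas Rps24 had 0.965 and Rps27l 0.948. The mice share the sequencing depth of all their genes in this measure. It also leans on the WT control mice, where the median log2 level of the members had an SD of 0.37, against 0.14 to 0.19 in the other groups. It was not worked out without the second WT control mouse or for other sets of genes. After median-ratio scaling the median was 0.978 and the lowest, again Rpl7l1, was 0.714.

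Together the members took 5.25% to 8.28% of the FPKM sum of a mouse. The share was 5.91%, 8.10%, and 6.98% in the WT control mice, and 5.52%, 6.47%, and 5.25% in the Cfb-/- control mice. It was 7.16%, 7.23%, 7.17%, and 8.28% in the WT diabetic mice, and 7.83%, 7.44%, 6.36%, and 7.12% in the Cfb-/- diabetic mice. WT control mice thus spanned most of the range, and the 2 diabetic groups overlapped. The summed FPKM was 23079, 39537, and 29816 in WT control, 20599, 25530, and 19808 in Cfb-/- control, 23632, 25767, 24968, and 30209 in WT diabetic, and 26374, 24593, 21112, and 24285 in Cfb-/- diabetic mice. The share and the sum ordered the groups differently. FPKM sums of all genes were 330246 to 364953 in diabetic and 372884 to 488196 in control mice, and Kap, an androgen-regulated gene of proximal tubule, was at 6671 to 16015 FPKM in diabetic and at 39707 to 67836 FPKM in control mice. The ratio of large to small subunit sums stayed within 1.22 to 1.27 in all 14 mice.

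The second WT control mouse had the highest value of all 14 mice for 78 members as deposited and for 80 after scaling. Its values were a median 1.48 times the mean of the other 2 WT control mice over the members, and 0.880 times over all tested genes. This mouse was also highest for the mitochondrial ribosomal and proteasome lists described later. As medians of log2 differences from each gene's mean, it had 0.45 and 0.46 there as deposited, against 0.61 for the members. After scaling these were 0.80 and 0.82, against 0.97. For the ribosome biogenesis list it had -0.09 as deposited and 0.26 after scaling. Within the WT control group, 79 members had the same order, with the second mouse highest and the first lowest. The highest WT control mouse exceeded the lowest by a median of 1.68-fold over the members, against 1.24-fold to 1.29-fold in the other groups. The counts and medians of comparisons with WT control mice, and the named members and lists whose values moved most, are therefore also given without this mouse.

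**Figure D2:**
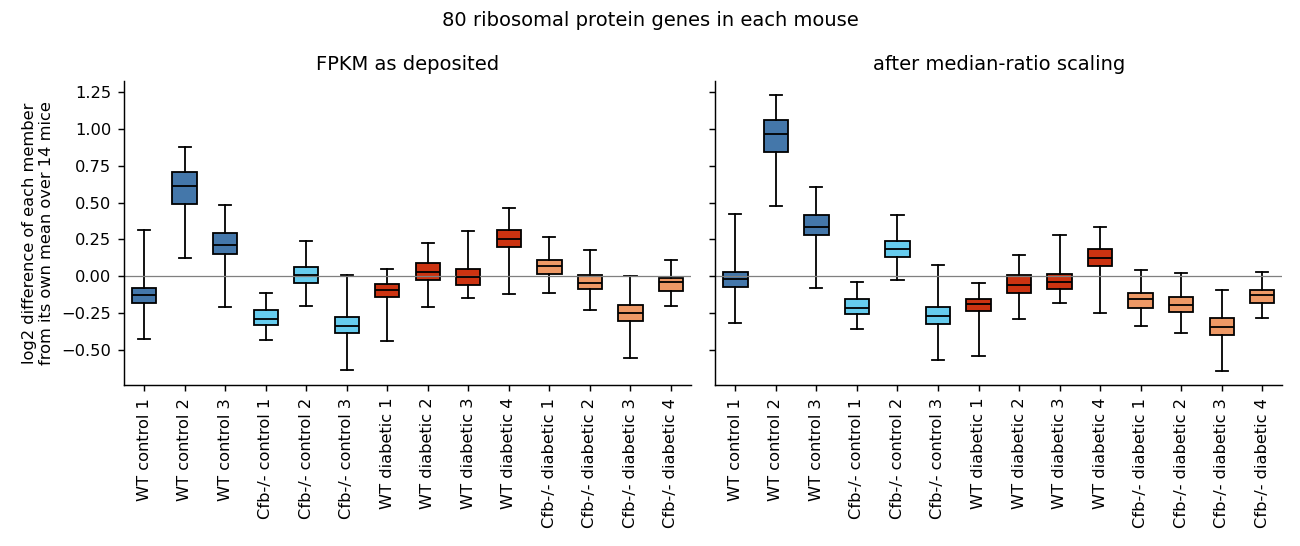
Log2 difference of each of the 80 members from its own mean over 14 mice, as 1 box per mouse (box: quartiles, line: median, whiskers: lowest and highest member), as deposited on the left and after median-ratio scaling on the right. WT control mouse 2 is highest in both, with a median of 0.61 as deposited and 0.97 after scaling, and the WT control mice span more than any other group.

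The first question was whether the ribosomal protein genes change with diabetes in WT kidney. As deposited, 77 of 80 members were lower in WT diabetic than in WT control mice, with a median log2 difference of -0.19 (0.878-fold), and 2 members fell, Rpl10 and Rpl22l1. Over all 14912 tested genes the median was 0.29, and 9.97% were called lower and 36.2% higher by limma at an adjusted p under 0.05. After median-ratio scaling, 31 of 80 members fell (22.4% of all tested genes called lower and 22.7% higher), with a median of -0.47 (0.722-fold) against 0.03 for all genes. With all mice, the members lay about as far below the middle gene in both scalings, by 0.48 and 0.50 on the log2 scale. The scaling decided how many passed the test.

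Without the second WT control mouse, the median was -0.01 as deposited, against 0.20 for all genes. Then 1 member was called higher and 1 lower (24.9% and 7.11% of all tested genes). After scaling the median was -0.22 against 0.00083 for all genes, with 2 called lower (15.3%). The members thus lay less far below the middle gene without this mouse in both scalings. Without the first WT control mouse, 33 members were called lower as deposited (12.3% of all tested genes), with a median of -0.38. The count was 1 without the third and 4 without the fourth WT diabetic mouse. The shares of all tested genes called without a diabetic mouse are not given here. When all mice were scaled to equal FPKM sums, which removes the lower totals of diabetic mice, the median turned to 0.12 and 9 members were called higher (57.7% of all tested genes). The large and small subunits had like medians, -0.20 over 48 genes and -0.13 over 32 genes as deposited. Spread among members was small, since 74 of 80 lay within 0.2 of the median.

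Rpl22l1, at chr3:28805508-28807424 on GRCm38.p6, encodes the paralog of Rpl22 and was the lowest member in this comparison. It was at 50.2, 64.1, and 56.5 FPKM in WT control mice and at 29.7, 34.8, 38.5, and 46.1 FPKM in WT diabetic mice. All WT diabetic mice were below all WT control mice. The log2 difference was -0.62 ± 0.16 (SE; limma adjusted p = 0.00735; exact permutation p = 0.0571, two-sided), and -0.90 after scaling (adjusted p = 0.00143). The difference kept its sign and passed the threshold when any single mouse was left out, and it was -0.53 without the second WT control mouse. With equal FPKM sums it was -0.31, with an adjusted p of 0.067.

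Its partner Rpl22 was at 35.7, 50.5, and 39.9 FPKM in WT control and at 33.9, 38.9, 39.9, and 49.7 FPKM in WT diabetic mice, and these groups overlapped. The ratio of Rpl22l1 to Rpl22 within a mouse does not depend on scaling. It was 1.27 to 1.42 in WT control mice and 0.875 to 0.965 in WT diabetic mice, with no overlap (log2 difference -0.57, exact permutation p = 0.0286, the smallest that 4 against 3 mice allow). Without the second WT control mouse, the log2 difference of this ratio was -0.62 (exact permutation p = 0.0667, the smallest that 4 against 2 mice allow). In Cfb-/- control mice the ratio was 1.04 to 1.38 and in Cfb-/- diabetic mice 0.858 to 1.10, which overlap (log2 difference -0.22, exact permutation p = 0.20).

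Rpl10, at chrX:74270816-74273135, joins the large subunit late in its assembly. It was at 518, 726, and 578 FPKM in WT control mice and at 441, 506, 438, and 487 FPKM in WT diabetic mice. All diabetic values were below all control values, and the log2 difference was -0.36 ± 0.12 (SE; adjusted p = 0.0243; exact permutation p = 0.0286). It was -0.23 without the second WT control mouse and then missed the threshold. With equal FPKM sums it was -0.05, so this call depended on the scaling. These 2 members were also the only ones whose groups did not overlap as deposited (9.84% of all tested genes did not overlap in this direction), and after scaling 11 members did not overlap (22.2% of all tested genes).

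Rps27l, at chr9:66944624-66949522, a p53 target and paralog of Rps27, was the highest member in WT mice with diabetes. It was at 30.5, 46.3, and 36.7 FPKM in WT control and at 39.0, 46.6, 46.7, and 53.7 FPKM in WT diabetic mice, which overlap. The log2 difference was 0.31 ± 0.14 (SE; adjusted p = 0.085), and 0.03 after scaling. It passed the threshold without the second WT control mouse (0.46, adjusted p = 0.0194), without the first WT diabetic mouse (0.39, adjusted p = 0.0462), and with quantile normalization (0.36, adjusted p = 0.0316). Its ratio to Rps27 was 0.0395 to 0.0440 in WT control mice and 0.0544 to 0.0575 in WT diabetic mice, with no overlap (log2 difference 0.40, exact permutation p = 0.0286). It was 0.35 without the second WT control mouse (exact permutation p = 0.0667). The ratio was 0.0503 to 0.0554 in Cfb-/- control and 0.0502 to 0.0592 in Cfb-/- diabetic mice. Cfb-/- control mice overlapped both diabetic groups and lay above WT control mice (exact permutation p = 0.10, the smallest that 3 against 3 mice allow). The interaction of genotype and diabetes for this ratio was not tested. The same ratio was also taken for Rpl7l1 to Rpl7 and for Rpl36al to Rpl36a. With diabetes, the first had log2 differences of 0.04 in WT and -0.11 in Cfb-/- mice (exact permutation p = 0.657 and 0.286). The second had -0.35 and -0.33 (exact permutation p = 0.0571 for each). Rpl22l1 and Rps27l were the lowest and highest members in WT mice with diabetes, and the p-values of these ratios are not corrected for that.

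When each mouse was centred on the median of its members, so that only departures from the group of 80 remained, Rpl22l1 (-0.41) and Rps27l (0.52) were the members called in WT mice with diabetes (37.2% of all tested genes were called under this centring), and Rpl35a (-0.33) was the member called in Cfb-/- mice (18.2% of all tested genes). This centring was chosen after the values had been seen.

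**Figure D3:**
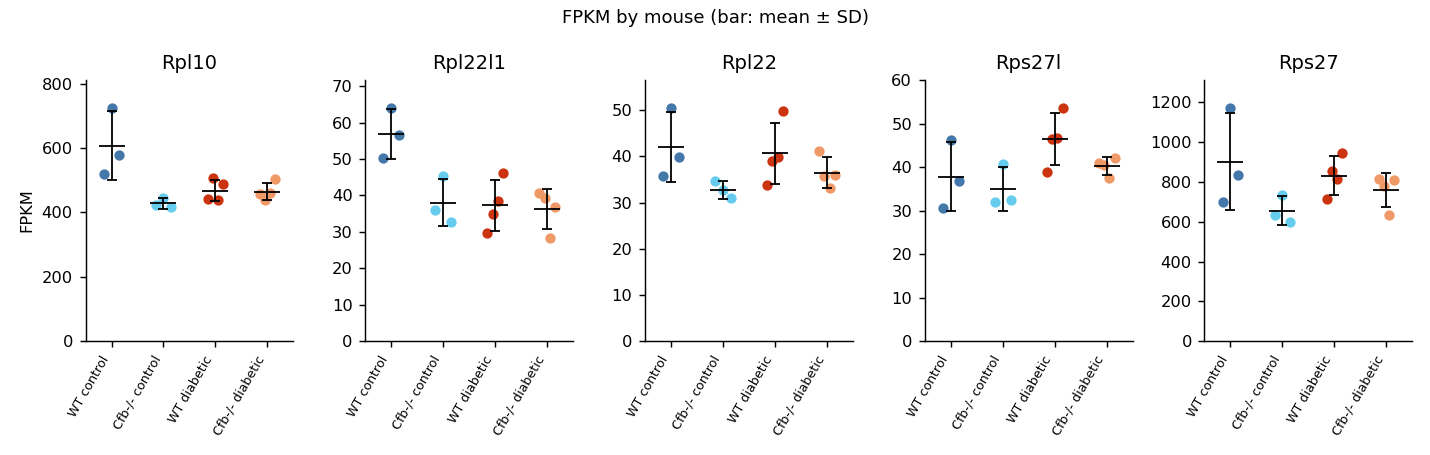
FPKM of Rpl10, Rpl22l1, Rpl22, Rps27l, and Rps27 in each mouse by group, with mean and SD. The 3 WT control mice are above the 4 WT diabetic mice for Rpl10 and Rpl22l1, whereas the groups overlap for Rpl22, Rps27l, and Rps27.

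Of the other extremes in WT mice, Rpl28 had a log2 difference of -0.40 (adjusted p = 0.0522) as deposited, and fell by 0.69 after scaling. Without the second WT control mouse these were -0.23 and -0.44 (adjusted p = 0.265 and 0.058), without the first it was -0.60 as deposited (adjusted p = 0.00403), and with quantile normalization it was 0.0060. Rpl28 was at 564, 943, and 767 FPKM in WT control and at 530, 535, 537, and 648 FPKM in WT diabetic mice, which overlap only through the first control and the fourth diabetic mouse. Rpl15 had 0.06 and Rps24 had 0.05 as deposited, and -0.22 and -0.24 after scaling, none past the threshold. The P stalk genes did not pass as deposited or after scaling, with -0.11 for Rplp0, -0.24 for Rplp1, and -0.23 for Rplp2 as deposited. Rplp0, often used as a reference gene, was at 421, 702, and 556 FPKM in WT control and at 469, 540, 491, and 530 FPKM in WT diabetic mice. The WT control mice lay on both sides of all WT diabetic mice.

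Rpl5 and Rpl11, which join 5S rRNA and Mdm2, had -0.18 and -0.30 as deposited and fell by 0.46 and 0.59 after scaling (adjusted p = 0.0152 and 0.0460). Rpsa, also known as the laminin receptor, had -0.22 and fell by 0.50 after scaling (adjusted p = 0.0437). Without the second WT control mouse, the scaled differences of Rpl5, Rpl11, and Rpsa were -0.30, -0.26, and -0.23, and none passed the threshold (adjusted p = 0.061, 0.25, and 0.219). Rps6, Rps3, Rps19, Rps27a, which is made as a fusion with ubiquitin, Rpl13a, Rpl39, Rpl7, and Rps4x did not pass in either scaling. Their log2 differences were between -0.16 and -0.05 as deposited and between -0.44 and -0.33 after scaling.

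In Cfb-/- mice, the same question gave small differences the other way as deposited. With diabetes, 73 of 80 members were higher and 7 lower, with a median log2 difference of 0.13 (1.09-fold), and 0 members passed the limma test (33.8% of all tested genes were called in either direction, 27.4% higher and 6.4% lower). At an unadjusted p under 0.05 the count was also 0. The median of all genes was 0.22, so the members lay 0.09 below the middle gene. After median-ratio scaling 6 members were higher and 74 lower, with a median of -0.11 against -0.01 for all genes, and again 0 were called (18.5% of all tested genes called higher and 14.1% lower), with 1 member at an unadjusted p under 0.05. With equal FPKM sums, 47 members were called higher (40.5% of all tested genes), with a median of 0.32 against 0.40 for all genes. Without the second Cfb-/- control mouse the median was 0.24 as deposited, and without the third it was 0.08. The direction in Cfb-/- mice is therefore set by the scaling.

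Rpl12, a stalk base protein, had the highest difference, 0.36 ± 0.19 (SE; adjusted p = 0.167). It was at 180, 225, and 167 FPKM in Cfb-/- control and at 289, 256, 199, and 235 FPKM in Cfb-/- diabetic mice, where the second control mouse was above the third diabetic mouse. Rps16 followed with 0.32 and Rps19, mutated in Diamond-Blackfan anemia, with 0.31, and after scaling the 3 had 0.12, 0.08, and 0.06. The lowest were Rpl35a with -0.16, Rpl22l1 with -0.07, and Rpl7l1 with -0.04. Rpl22l1 was at 36.0, 45.3, and 32.8 FPKM in Cfb-/- control and at 40.6, 39.4, 28.4, and 37.0 FPKM in Cfb-/- diabetic mice, which overlap throughout. As deposited 0 members were lower without overlap (8.64% of all tested genes), and after scaling Rpl3 and Rps25 were (20.6% of all tested genes). Rps25 is named here because of this count. Members and genes that were higher without overlap are not counted here, although most members were higher as deposited.

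Marker genes of several cell types also differed between diabetic and control mice. The 5 proximal tubule markers summed to 2497 to 2955 FPKM in WT control, 2310 to 2522 in Cfb-/- control, 1160 to 1530 in WT diabetic, and 927 to 1602 in Cfb-/- diabetic mice. Of them, 3 fell in WT and 4 in Cfb-/- mice. The 5 injured tubule markers summed to 9.16 to 12.0 and 13.9 to 18.7 FPKM in WT and Cfb-/- control mice, and to 107 to 177 and 68.4 to 204 FPKM in WT and Cfb-/- diabetic mice, and 5 of 5 rose in each genotype. The 5 macrophage markers summed to 32.9 to 54.1 FPKM in control and to 110 to 191 FPKM in diabetic mice, and 5 rose in WT and 4 in Cfb-/- mice. All 5 T cell markers rose in both genotypes, and of the 5 red blood cell markers 2 fell in WT and 4 in Cfb-/- mice. Of 5 urothelium markers 5 rose in WT and 0 in Cfb-/- mice, and of 4 adipocyte markers 4 and 1, with 0 of either list called in the interaction. The urothelium markers summed to 0.28 to 0.61 FPKM in WT control and 0.61 to 8.77 in Cfb-/- control mice. In WT diabetic mice they summed to 0.69 to 45.7 FPKM, and in Cfb-/- diabetic mice to 1.22 to 3.09. They thus differed widely between mice of a group, also among Cfb-/- control mice. None of these markers was at 0 in all mice, and their part in the values of the members was not tested. In RNA from kidney tissue, fewer cells of a type and less RNA per cell cannot be told apart.

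**Figure D4:**
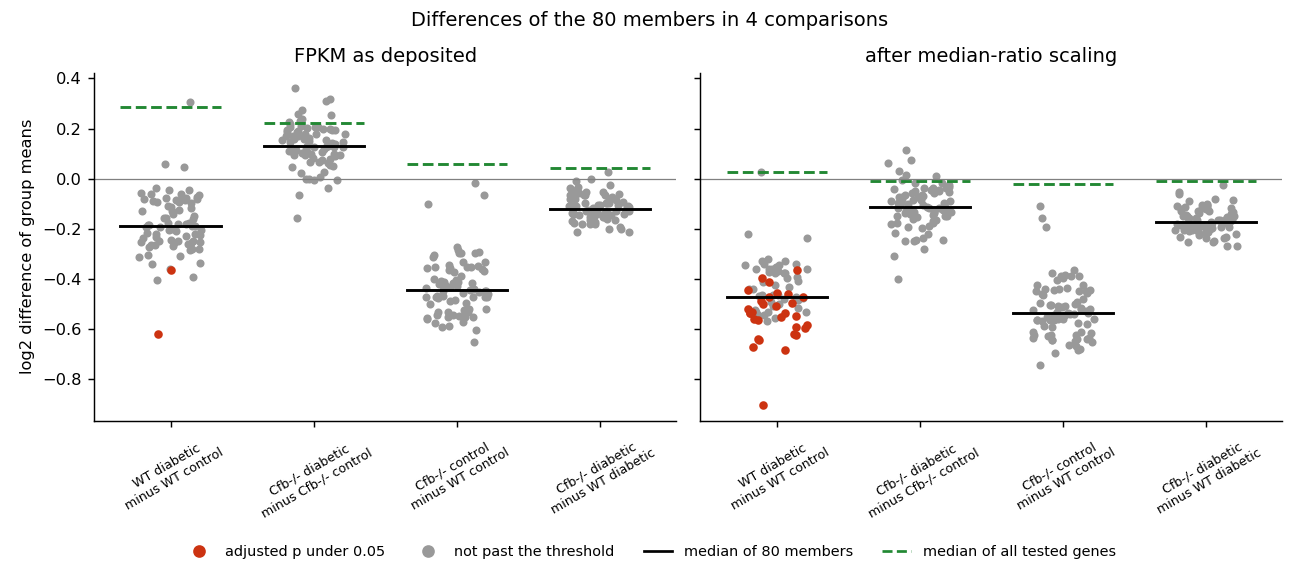
Log2 difference of group means for each of the 80 members in 4 comparisons, as deposited on the left and after median-ratio scaling on the right. Red points have an adjusted p under 0.05 (2 and 31, all in WT diabetic minus WT control), black lines are member medians, and dashed green lines are medians of the 14912 tested genes. The member median in Cfb-/- mice with diabetes changes sign between the panels, from 0.13 to -0.11.

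The next question was whether deletion of Cfb alone went with another level. In control mice, all 80 members were lower where Cfb was deleted, with a median log2 difference of -0.44 (0.735-fold) against 0.06 for all genes, and -0.54 after scaling against -0.02. By limma 0 members were called (0.00671% of all tested genes were called, which is Cfb alone). The smallest adjusted p of a member was 0.236, and 67 members had an unadjusted p under 0.05, against 17.5% of all tested genes. The groups did not overlap for 12 members, or 15%, against 7.12% of all tested genes in this direction, and after scaling for 8 members, or 10.0%, against 8.09%. Leaving out the second WT control mouse gave a median of -0.25, with 8 members at an unadjusted p under 0.05 and 0 called. The share of all tested genes at that unadjusted p without this mouse is not given here. Leaving out the first WT control mouse gave -0.62 and 61 members called lower, against 5.14% of all tested genes.

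The most lowered were Rps15 with -0.65 ± 0.23 (SE; adjusted p = 0.249), Rpl36 with -0.60, and Rpl34 with -0.59. Without the second WT control mouse they had -0.38, -0.30, and -0.34, and without the first -0.90, -0.95, and -0.83, and then they passed the threshold. Rps15 was at 470, 967, and 642 FPKM in WT control and at 391, 524, and 367 FPKM in Cfb-/- control mice, and the groups overlapped through the first WT and the second Cfb-/- mouse. Rpl22l1 had -0.59 and Rpl10 -0.49, both without overlap. Rpl10 was at 422, 447, and 416 FPKM in Cfb-/- control mice, each below the lowest WT control mouse. The least lowered were Rpl7l1 with -0.02, Rpl15 with -0.06, and Rps27l with -0.10. Rpl7l1 was at 25.0, 28.0, and 26.4 FPKM in WT control and at 23.7, 29.1, and 25.8 FPKM in Cfb-/- control mice, and its values overlapped in all 4 groups.

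The 5 red blood cell markers, which are globin genes and Alas2, summed to 562 to 880 FPKM in WT control and to 304 to 555 FPKM in Cfb-/- control mice, without overlap as deposited. The highest sum was that of the second WT control mouse, and the other WT control mice had 562 and 598 FPKM. After median-ratio scaling the second Cfb-/- control mouse lies above the third WT control mouse, so the groups overlap. All 5 red blood cell markers were lower in Cfb-/- control mice, 0 of 5 passed the test, and none was at 0 in all mice. Also lower were 5 of 5 T cell, 4 of 5 macrophage, 3 of 3 endothelium, 2 of 2 podocyte, and 3 of 5 proximal tubule markers. Fewer were lower for B cell (2 of 4), collecting duct (1 of 2), injured tubule (1 of 5), and adipocyte markers (1 of 4). None were for urothelium (0 of 5), thick limb (0 of 2), and distal tubule markers (0 of 2). In these lists 0 were called. The part of any of these markers in the difference of the ribosomal protein genes was not tested.

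Between diabetic mice, the question was whether the deletion mattered under diabetes. Here 79 of 80 members were lower in Cfb-/- than in WT mice, by a median of 0.12 on the log2 scale (0.920-fold), against 0.04 for all genes. The exception, Rpl7l1, had 0.03 as deposited and -0.03 after scaling. After scaling the median was -0.17 against -0.01. By limma 0 members were called (0.00671% of all tested genes, Cfb alone), and 0 had an unadjusted p under 0.05. As deposited 0 members had groups without overlap (0.885% of all tested genes were lower without overlap), and after scaling 7 did, or 8.75%, against 1.62% of all tested genes in this direction.

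The lowest were Rpl34 and Rpl36 with -0.21 and Rps27l with -0.20, and the highest beside Rpl7l1 were Rpl10a with -0.0014 and Rpl10 with -0.01. Rpl36 was at 50.3, 56.8, 71.5, and 78.6 FPKM in WT diabetic and at 66.9, 65.1, 39.2, and 51.7 FPKM in Cfb-/- diabetic mice, which overlap. Rps27l was at 40.9, 40.5, 37.4, and 42.2 FPKM in Cfb-/- diabetic mice, and the first WT diabetic mouse at 39.0 FPKM lay among them. The standard errors of these differences were 0.25 for Rpl36, 0.18 for Rpl34, and 0.13 for Rps27l. Without the third Cfb-/- diabetic mouse Rpl36 had -0.06 and Rpl34 -0.11, and without the first WT diabetic mouse -0.32 and -0.29. The median was -0.05 without the third Cfb-/- diabetic mouse or without the fourth WT diabetic mouse, and between -0.17 and -0.13 with any other diabetic mouse left out. It was -0.06 with equal FPKM sums and -0.02 with quantile normalization.

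Whether the effect of diabetes differed between genotypes was tested as an interaction, for which 0 genes of all 14912 and 0 members were called by limma. The interaction term was positive in 78 of 80 members, with a median of 0.33, and 2 members, Rpl10 (0.48) and Rpl22l1 (0.55), had an unadjusted p under 0.05, a share of 2.5% against 5.77% of all tested genes. The median was 0.53 without the first and 0.13 without the second WT control mouse. The comparisons share groups. WT control mice enter the first, the third, and the interaction, so that their spread is in each of these values.

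**Figure D5:**
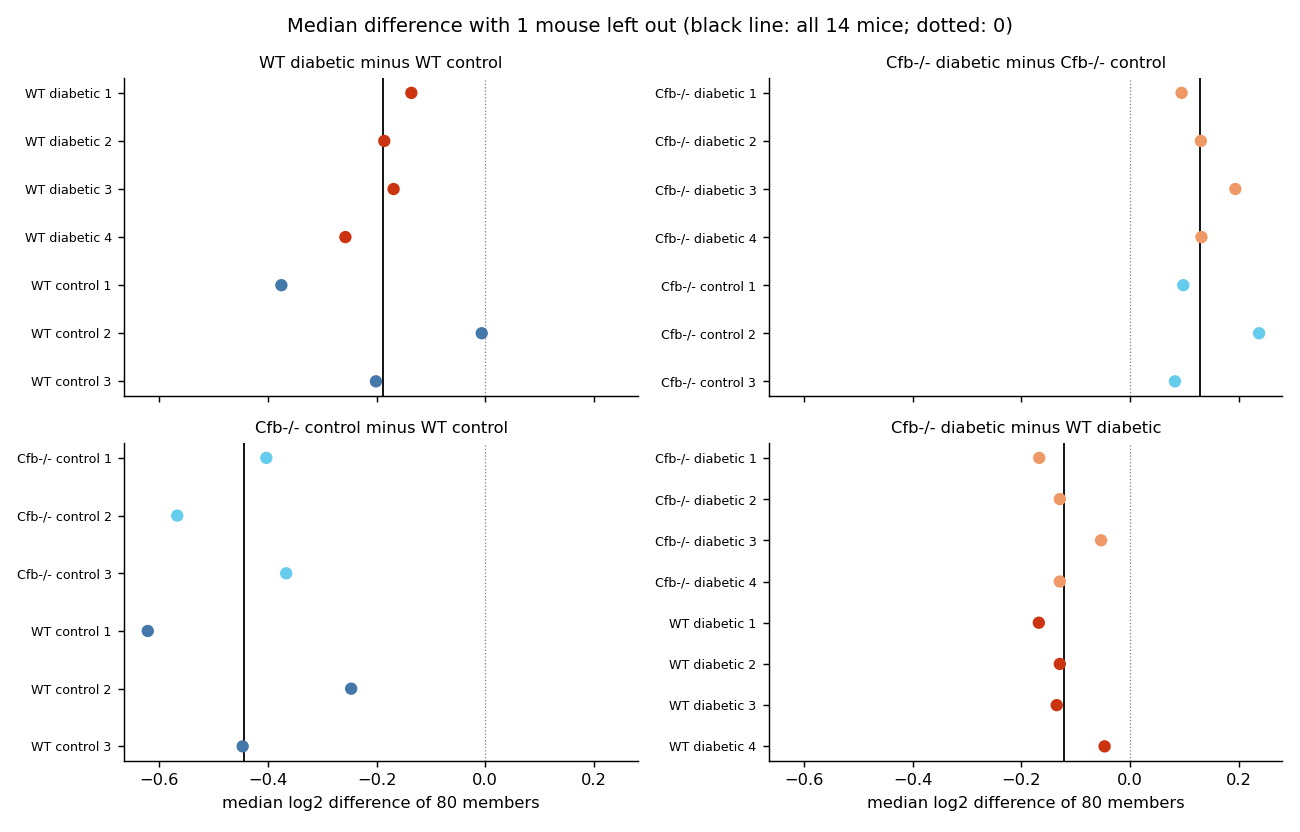
Median log2 difference of the 80 members when 1 mouse of the compared groups is left out, for 4 comparisons as deposited, with the value of all mice as a black line and 0 as a dotted line. Leaving out WT control 2 brings the WT diabetic minus WT control median from -0.19 to -0.01, and that of Cfb-/- control minus WT control from -0.44 to -0.25.

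A list of 5 genes held names outside the rule that are tied to the ribosome, such as the small subunit scaffold Rack1 and Rpl36al. Of these, Rpl36al fell in WT mice with diabetes (-0.55, adjusted p = 0.00807) and 4 fell after scaling, against 1 in each scaling without the second WT control mouse. Rpl36al, the retrogene paralog of Rpl36a, was at 230, 378, and 307 FPKM in WT control and at 199, 210, 190, and 220 FPKM in WT diabetic mice, without overlap. In Cfb-/- mice 0 of 5 were called in either scaling.

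Genes of other protein machines were set beside the members in lists of their own. Of all tested genes, 36.2% rose and 9.97% fell in WT mice with diabetes as deposited, and 22.7% and 22.4% after scaling. In Cfb-/- mice 27.4% rose and 6.4% fell, and 18.5% and 14.1% after scaling. Of 74 mitochondrial ribosomal protein genes, whose products translate mitochondrial mRNA, 29 fell and 1 rose in WT mice with diabetes, with a median of -0.25 against 0.29 for all genes, and 63 fell and 0 rose after scaling. The counts that fell were 12 and 36 without the second WT control mouse. Mrps26 (-0.68) and Mrpl12 (-0.68) fell, and Mrps6 rose (0.77) as deposited but missed the threshold after scaling (0.48, adjusted p = 0.132). In Cfb-/- mice 6 fell as deposited, and 27 after scaling. Of 24 proteasome genes, 13 fell and 3 rose in WT mice, and 19 fell and 1 rose after scaling. Leaving out the second WT control mouse, 7 fell as deposited and 17 after scaling. In Cfb-/- mice 1 fell and 3 rose, and 11 fell and 3 rose after scaling. Psmb4 (-0.53) and Psmb3 (-0.52) fell, whereas Psmb8 (1.14) and Psmb9 (0.79), subunits of the immunoproteasome, rose as deposited. After scaling Psmb9 missed the threshold in WT mice (0.51, adjusted p = 0.070). Psmb3 missed it as deposited without the second WT control mouse (-0.33, adjusted p = 0.0537).

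Of 20 translation factors and other genes known for TOP mRNAs, 2 rose and 1 fell in WT mice as deposited, and 0 rose and 13 fell after scaling. The second WT control mouse left out, 0 rose and 1 fell as deposited and 5 fell after scaling. Tpt1, a translationally controlled growth protein, fell (-0.60, adjusted p = 0.00924), whereas Pabpc1, the poly(A) binding protein, and Hnrnpa1 rose (0.32 and 0.35) as deposited and had 0.04 and 0.07 after scaling (adjusted p = 0.738 and 0.551). In Cfb-/- mice, 1 of the 20 genes rose and 0 fell as deposited, and 0 rose and 1 fell after scaling. Without the second WT control mouse, 3 rose there as deposited and 4 fell after scaling. Of 38 ribosome biogenesis genes, 5 rose and 3 fell in WT mice as deposited. Among them were Rrn3 (0.57), an initiation factor of RNA polymerase I, and Nop16 (-0.41). After scaling 0 rose and 11 fell. With that mouse left out, 3 rose and 1 fell, and 0 rose and 4 fell after scaling. In Cfb-/- mice 7 rose and 1 fell as deposited, and 0 rose and 3 fell after scaling. Without the second WT control mouse, 10 rose and 1 fell there, and 1 rose and 4 fell after scaling.

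Of 20 genes that control translation, 7 rose and 2 fell in WT mice with diabetes, shares close to those of all tested genes, and 7 rose and 1 fell in Cfb-/- mice. After scaling 5 rose and 6 fell in WT and 4 rose and 2 fell in Cfb-/- mice. Mtor fell in both (-0.70, adjusted p = 0.0155, and -0.88, adjusted p = 0.00522). It was at 31.5, 19.1, and 17.8 FPKM in WT control and at 26.1, 19.9, and 28.9 FPKM in Cfb-/- control mice, and at 10.9 to 16.4 FPKM in the 8 diabetic mice, below every control mouse. Eif2ak2, a kinase that is activated by double-stranded RNA and halts translation, rose (1.75 and 1.55). Of 10 p53 targets, 10 rose in each genotype with diabetes, and 7 after scaling. Cdkn1a, the cell cycle inhibitor p21, was at 3.03 to 6.61 FPKM in the 6 control mice and at 66.6 to 131 FPKM in the 8 diabetic mice. In both comparisons between genotypes, 0 genes of these 7 lists were called, where limma called Cfb alone among all genes.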

How the data were processed

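Per mouse, the authors deposited a table of genes with FPKM values, made by tools that the submitters' processing notes list as Trimmomatic, HISAT2, Cufflinks, HTSeq, and DESeq, without versions, on GRCm38.p6. The libraries were stranded and made from poly(A) mRNA, and the strand setting of counting is not given in the sources used here. The unit was read from the values. Because FPKM are not counts, log2(FPKM + 0.1) was tested with limma (version 3.58.1, R version 4.3.3), letting the variance follow the mean, over the 14912 genes at 0.1 FPKM or more in at least 3 mice, in a fit of all 14 mice with a mean per group. Calls are at a Benjamini-Hochberg adjusted p under 0.05. Differences understate changes of low genes. Exact permutation tests are two-sided and their smallest p is 0.0286 for 4 against 3 or 4 mice and 0.10 for 3 against 3. Replicates are separate mice. The members and lists were chosen with earlier results of these data known.

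Named members were a list of roles and paralogs, the 3 highest and 3 lowest differences in each pair of groups, the 3 highest and 3 lowest levels, genes of small counts, and the 2 highest and 2 lowest of each further list. Alternatives were other scalings, pseudocounts and filters, a fit of only the groups compared, a replicate block, and fits without each mouse in turn. For the further lists, fits without the second WT control mouse were added after the data had been seen. On simulated data for WT diabetic minus WT control, 200 of 14912 genes were changed. Of these, 11 of the 67 genes set to a log2 change of 0.5 were recovered, 45 of the 67 set to 1, and 62 of the 66 set to 2. Of the 14712 genes left as they were, 6 got called. The simulated noise was drawn for each gene on its own, whereas the members moved together. Far fewer genes were changed than the 6879 called in the real comparison. The simulation was a check of the code, and its counts do not give the recovery of members in these data. Sequences are from RefSeq, and figures and exact tests were made in Python 3.11.15. Protein sequences were not used here. Values of some genes that the rule names are not reported here.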

Additional observations from a re-analysis of the deposited data

Results flagged for a closer look

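The values of named members and of the summed measures were checked for a mouse far from the rest in the 2 groups of 4 mice, in 78 tests. Chance flags about 1 in 20 such groups, and 6 were flagged. The fourth WT diabetic mouse lay above the other 3 for Rpl3 (211 FPKM against 159 to 167), Rpl28 (648 FPKM against 530 to 537), Rpl35a (186 FPKM against 135 to 138), and for the share of the FPKM sum held by the members (8.28% against 7.16% to 7.23%). The third Cfb-/- diabetic mouse lay below the other 3 for Rpsa (232 FPKM against 254 to 255) and Rps15a (21.5 FPKM against 24.8 to 25.3). Control groups of 3 mice, that of the second WT control mouse included, were not checked in this way.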

How the results depend on the processing

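With 3 or 4 mice a group and an unknown number of reads, members were called as deposited in WT mice with diabetes and in no other comparison, and that count moved with the scaling. For WT diabetic minus WT control, the 2 calls became 31 with median-ratio scaling, 9 with equal FPKM sums, 1 with the compared groups alone, and 1 to 33 with a mouse left out, and the median became -0.47, 0.12, and, with quantile normalization, 0.093, and -0.38 to -0.01 with a mouse left out. For Cfb-/- diabetic minus Cfb-/- control, the 0 calls became 47 with equal FPKM sums, 31 with quantile normalization, and 1 with members centred (0 with any mouse left out). With equal FPKM sums, 40.5% of all tested genes were called higher. That share is not given here for quantile normalization or for the compared groups alone, so their counts cannot be set against it. The median turned to -0.11 with median-ratio scaling, also without the second WT control mouse. For Cfb-/- control minus WT control, the median was -0.20 with quantile normalization, and -0.62 to -0.25 with a mouse left out, with 0 to 61 calls. The interaction median was 0.10 with median-ratio scaling and without the second WT control mouse. Without the 10 genes of highest mean FPKM over all mice, the share of the members was 8.81% in WT control, 7.09% in Cfb-/- control, 8.42% in WT diabetic, and 8.05% in Cfb-/- diabetic mice. The cause of these changes was not tested. Centring on the members, and median-ratio scaling without the second WT control mouse, were added after the data had been seen.

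Replicate numbers did not pair the mice, with correlations of same-numbered deviations between -0.39 and 0.24. With the replicate block, 4 members were called lower in WT mice with diabetes, and the block changed no other count of members called. The share of all tested genes called with the block is not given here. The rule counted 82 members at 1 FPKM and 84 with no level filter.

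Several named differences, most of them near 0, changed sign. In WT mice with diabetes, quantile normalization gave 0.0060 for Rpl28, median-ratio scaling gave -0.24 for Rps24 (-9.61e-05 also without the second WT control mouse) and -0.22 for Rpl15, and left-out mice gave -0.084 to 0.21 for Rps24 and -0.045 to 0.21 for Rpl15. In Cfb-/- mice with diabetes, equal FPKM sums gave 0.12 for Rpl22l1, 0.15 for Rpl7l1, and 0.029 for Rpl35a (0.000243 with quantile normalization), and left-out mice gave -0.17 to 0.066 for Rpl22l1 and -0.11 to 0.038 for Rpl7l1. For Cfb-/- control minus WT control, equal FPKM sums gave 0.085 for Rps27l, 0.17 for Rpl7l1, and 0.12 for Rpl15, quantile normalization gave 0.028 for Rpl7l1 and 0.076 for Rpl15, median-ratio scaling without the second WT control mouse gave 0.039, 0.0062, and 0.071, centring on the members gave 0.35, 0.43, and 0.38, and left-out mice gave -0.24 to 0.056, -0.094 to 0.051, and -0.17 to 0.088. For Cfb-/- diabetic minus WT diabetic, equal FPKM sums, quantile normalization, and centring gave 0.053, 0.12, and 0.059 for Rpl10 and 0.060, 0.089, and 0.066 for Rpl10a, with left-out mice at -0.048 to 0.030 and -0.059 to 0.083, and Rpl7l1 had -0.026 with median-ratio scaling, -0.023 also without the second WT control mouse, and -0.0034 to 0.061 with a mouse left out.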
